A study of Mus musculus with 8 samples.

Results

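The cortex described here is the control-injected primary somatosensory cortex of adult male wild-type mice aged 3 months, taken 10 days after a stereotactic injection. Its members are the 4 libraries labelled NC, chosen by their labels alone, of 8 libraries in the series. Every animal received a scrambled control (NC) in 1 hemisphere and, in the opposite hemisphere, LNA218, a locked nucleic acid inhibitor of the microRNA miR-218-5p. NC was on the left in mice 33, 34 and 36 and on the right in mouse 35, and RNA from the injection site was selected for poly(A) tails and sequenced on an Illumina instrument. Each library comes from a separate animal, so the spread between the 4 libraries holds differences between animals, dissections and library preparations together. As a model of cortex, the tissue is limited by what all 4 share: an injection track, a scrambled oligonucleotide and an active inhibitor in the opposite hemisphere. Uninjected cortex was not analysed here, and no contrast with LNA218 is made, so the values below are levels, not responses to the injection.

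The primary somatosensory cortex receives touch signals from the body through the thalamus and is built of layers, each with its own excitatory neurons that use glutamate. Inhibitory interneurons that use GABA, astrocytes, oligodendrocytes, microglia and blood vessels run through all layers. A needle passing through this tissue is known to activate microglia and astrocytes around its track, the first within days and the second for weeks. Bulk RNA mixes all these cells: a lower level of a marker can reflect fewer cells of a type or less RNA per cell, and these cannot be told apart here.

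The 4 libraries held 17409882 to 22925709 estimated counts over 14884 genes. Levels within a gene are given as CPM, its share of the library's counts on a common scale, after TMM scaling, which adjusts for differences in composition. Levels of different genes are compared only as TPM, a like share in which counts are first divided by transcript length. Values of single libraries are listed for mice 33, 34, 35 and 36, in that order, and the standard deviation (SD) is over these 4. Of all genes, 13673 (91.9%) had a mean of at least 1 CPM, the limit used below. Just inside it were Iqca and Trpv3 at 1.001 and 1.002 CPM, and just outside Gm10334 and Sgcz at 0.9997 and 0.9998 CPM. The 4 Y-linked genes measured, Ddx3y, Kdm5d, Eif2s3y and Uty, were present in every library, at 17.7 to 34.02 CPM for Ddx3y, and the labels give the animals as male. In a check for a library present more than once, the median chi-square over genes was 1.78 to 5.02 between pairs, against 0.455 from sampling alone; between separate animals a value above sampling noise says nothing further. Of the genes with a mean of at least 1 CPM, 16.3%, 32.9%, 26.5% and 24.3% had their highest value in mice 33, 34, 35 and 36, and 17.3%, 34.2%, 25.5% and 23% their lowest. A highest library over 2-fold the lowest was found in 583 of the 13673 genes (4.26%), so that 0 over 2-fold in a list of about 10 genes is no result about that list. The share depends on level: at a mean of at least 5 CPM it was 101 of 11397 genes (0.886%). For scarce genes 4.26% is therefore too low a background, and for abundant genes too high. These shares are the background for the counts below.

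Mitochondrially encoded genes headed the TPM ranking and filled 8 of its 20 highest places. These 20 genes held 13.8% of all TPM, and 572 genes held 50%. mt-Co1, a core subunit of cytochrome c oxidase, was first with 23693, 26836, 23534 and 27134 TPM. It stood clear of every other gene in all 4 libraries. Below it, the order is less certain, since 18 of the 19 neighbouring pairs in the ranking had ranges that overlapped. The mitochondrially encoded mt-Co3, mt-Nd1, mt-Cytb, mt-Nd4, mt-Nd2, mt-Co2 and mt-Atp6 averaged between 4267 and 11569.9 TPM. All encode subunits of the respiratory chain or, for mt-Atp6, of the ATP synthase.

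Nuclear protein-coding genes took 8 of the 20 places. Nrgn, which encodes neurogranin, a calmodulin-binding protein of dendritic spines, led them at 4662, 3866, 5139 and 4551 TPM. Cst3, the protease inhibitor cystatin C, averaged 4069 ± 540.1 TPM (SD, n = 4). Apoe, the main lipid carrier of the brain and made largely by astrocytes, averaged 3902 ± 416 TPM (SD, n = 4). The others were Aldoa (glycolysis), Eef1a1 (translation elongation), Cpe (processing of neuropeptides), Fth1 (iron storage) and Calm2 (calmodulin), with means of 3233 to 3674 TPM. Neighbours among these 5 had overlapping ranges, so their order cannot be read from 4 libraries.

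The remaining 4 places were pseudogenes on chromosome 1 that are copies of mitochondrial genes: Gm28661, Gm10925, Gm28437 and Gm29216. Together with Gm28438 they lie side by side on the minus strand at chr1:24612775-24616197 of GRCm38. Over their whole length, Gm28661 matched mt-Co2 in 681 of 681 bases, Gm10925 matched mt-Atp6 in 678 of 678, and Gm28437 matched mt-Co3 in 783 of 783. Gm29216 differed from mt-Co1 at 6 of 492 bases and Gm28438 from mt-Nd3 at 1 of 345. The first 60 bases of 2 copies and their mitochondrial counterparts are shown because they decide whether a read can be assigned, with capitals at the bases that differ (GENCODE M21 transcripts, GRCm38).
Gm10925: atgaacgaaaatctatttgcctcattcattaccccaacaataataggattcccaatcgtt
mt-Atp6: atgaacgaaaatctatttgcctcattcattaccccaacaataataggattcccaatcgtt
Gm29216: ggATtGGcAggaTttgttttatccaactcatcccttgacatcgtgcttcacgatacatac
mt-Co1 from base 1054: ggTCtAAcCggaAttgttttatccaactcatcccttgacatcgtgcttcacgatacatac
The Gm10925 and mt-Atp6 stretches hold no capital, so no read within them tells the gene from its copy. In the other pair all 6 substitutions fall in the first 13 bases of the copy, counted from 1 at its 5′ end (T3A, C4T, A6G, A7G, C9A and A13T, with the mt-Co1 base first).

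The split of counts between such twins moved more than their sum. Gm10925 had 2102, 2889.6, 951 and 2135 CPM and mt-Atp6 had 802, 730.0, 1929 and 746 CPM. Mouse 35 held the lowest value of the copy and the highest of the mitochondrial gene. Their sum was 2904, 3619.6, 2879 and 2881 CPM, a ratio of highest to lowest library of 1.26, against 3.04 and 2.64 for the copy and the gene alone. Gm28437 likewise had its lowest level in mouse 35, with 1998, 2343, 722 and 2041 CPM, and its sum with mt-Co3 had a ratio of 1.29, against 3.24 for the copy. The sum of Gm28661 and mt-Co2 varied least, with a ratio of 1.09. Reads of a copy and of its mitochondrial gene cannot be told apart in these 3 pairs, so both levels in each are uncertain. Gm29216 differs from mt-Co1 only up to base 13 of the copy, and Gm28438 from mt-Nd3 only at base 3. Reads of these copies beyond those bases cannot be assigned either, so their levels are uncertain too.

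Neuronal genes were abundant in all 4 cortices. Snap25, a SNARE protein of synaptic vesicle fusion, had 1243, 1284, 1103 and 1092 TPM, and the vesicle calcium sensor Syt1 had 809, 865, 713 and 743 TPM. None of the 12 general neuronal genes exceeded a 2-fold ratio between the highest and the lowest library. Over all genes with a mean of at least 1 CPM, 4.26% did. The median ratio was 1.17 in the neuronal list and 1.26 over all genes. Uchl1, a neuronal deubiquitinating enzyme, averaged 1417 ± 71.01 TPM and Thy1, a surface glycoprotein of projection neurons, 1184 ± 69.6 TPM (SD, n = 4).

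Genes of excitatory neurons were likewise abundant, with 0 of 10 over 2-fold, against 4.26% of all genes. Slc17a7, the vesicular glutamate transporter VGLUT1 of cortical neurons, had 1676, 1556, 1570.0 and 1526 TPM. Camk2a, the kinase of synaptic plasticity, averaged 2028 ± 82.5 TPM (SD, n = 4), with a ratio of 1.06. The largest ratios in the list belonged to transcription factors of the cortical lineage: Neurod6 had 112, 147, 93.02 and 106 CPM, highest in mouse 34, and Emx1 had 26.6, 20.2, 31.7 and 30.9 CPM, lowest in mouse 34.

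Markers of layers 2/3 to 6b were present. In layers 2/3, Cux2, a transcription factor of upper-layer neurons, had 25.2, 20.8, 30.1 and 26.4 TPM and Lamp5 averaged 292 ± 21.95 TPM, while Otof, a calcium sensor known from hair cells, reached only 2.54 ± 0.2095 TPM (SD, n = 4). The layer 4 genes, which mark the main target of thalamic input in a sensory area, were present at a lower median of 7.79 TPM. The nuclear receptor Rorb had 9.01, 6.31, 7.69 and 7.51 TPM, the sodium channel subunit Scnn1a 6.87, 8.07, 7.39 and 8.86 TPM and the Wnt co-activator Rspo1 21.8, 21.2, 25.6 and 23.7 TPM. None of the 7 layer 4 genes exceeded 2-fold, and 5 of 7 were lowest in mouse 34, where 34.2% of all genes with a mean of at least 1 CPM had their lowest value.

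Among layer 5 genes, Fezf2, which specifies neurons that project below the cortex, had 65.1, 60.5, 60.8 and 49.5 TPM and its target Bcl11b (CTIP2) had 34.6, 43.4, 33.4 and 28.3 TPM. Pou3f1, a POU-domain factor of layer 5, averaged 69.6 ± 3.15 TPM (SD, n = 4). Of 10 layer 5 genes, 6 were highest in mouse 34 and 6 lowest in mouse 36, against 32.9% and 23% of all genes. After a correction for GC content and length of the transcripts, 4 were highest in mouse 34 and 4 in mouse 33, and 6 were still lowest in mouse 36. In layer 6, Tle4, a transcriptional co-repressor of corticothalamic neurons, had 37.7, 41.6, 33.5 and 33.97 TPM and Crym, a thyroid hormone-binding protein, 92.1, 103, 77.3 and 91.8 TPM. Foxp2, a forkhead factor found in layer 6 and also in the striatum, had 10.5, 5.46, 6.97 and 5.41 CPM and was highest in mouse 33. The layer 6b genes, which mark the deepest cells above the white matter, included Ccn2 at 41.1, 30.9, 26.8 and 34.7 CPM, Cplx3 at 30.6, 17.01, 21.2 and 25.8 CPM and Nxph4 at 6.71, 3.15, 4.84 and 4.66 CPM. These 3 were highest in mouse 33, and Nxph4, which encodes a neurexin ligand, was the only 1 of the 5 layer 6b genes over 2-fold. The other 2 did not share this order: Moxd1 was lowest in mouse 33, with 4.61, 5.51, 5.36 and 6.44 CPM, and the nuclear receptor Nr4a2 was highest in mouse 34, with 39.3, 49.1, 33.4 and 32.7 CPM.

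**Figure D1:**
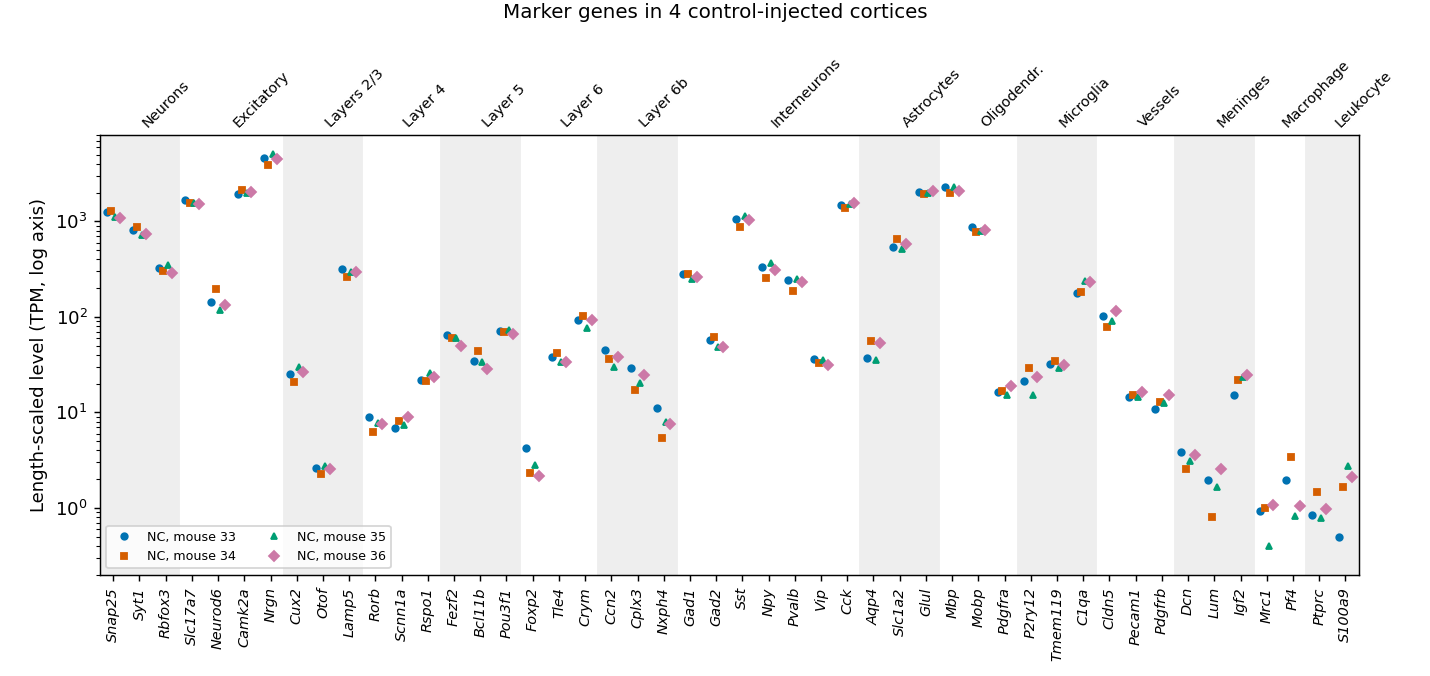
Levels of marker genes in the 4 NC cortices, in TPM on a log axis, with 1 symbol per library and the genes grouped by the cell class or layer they mark. Neuronal, astrocyte and myelin genes lie toward the top of the axis with their 4 symbols close together, whereas macrophage and leukocyte genes lie near 1 TPM.

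Interneuron genes were present for each main subclass. Gad1 and Gad2, the enzymes that make GABA, had 281, 285, 250.2 and 261 TPM and 56.9, 62.2, 48.4 and 48.2 TPM. Among peptides and calcium-binding proteins, Cck averaged 1484 ± 79.6 TPM, Sst 1026 ± 109.6 TPM, Npy 315 ± 46.9 TPM, Pvalb 228 ± 28.3 TPM and Vip 33.8 ± 2.37 TPM (SD, n = 4 each). Sst marks cells that inhibit dendrites, Pvalb marks fast-spiking cells, Vip marks cells that inhibit other interneurons, and Cck is made by excitatory neurons too. The shared interneuron genes held 0 of 9 over 2-fold. Among subclass genes the exception was Sncg, synuclein gamma, with 0.792, 1.03, 1.44 and 1.96 CPM, close to the 1 CPM limit. Chodl, the marker of the rare long-range Sst cells, stayed under 1 CPM with 0.466, 0.0983, 0.479 and 0.115 CPM, where counts are few.

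Astrocyte genes of resting function were high and were highest in mouse 36. Glul, the glutamine synthetase that recycles glutamate, averaged 2021 ± 67.4 TPM and Clu, the secreted chaperone clusterin, 1918 ± 223 TPM (SD, n = 4). The glutamate transporter Slc1a2 (GLT-1) had 2246, 2621, 2182 and 2523 CPM and the water channel Aqp4 68.5, 97.7, 64.4 and 101 CPM. Of 14 astrocyte genes, 12 were highest in mouse 36, against 24.3% of all genes, and none exceeded 2-fold. The list mean of log2(CPM + 0.5) was 8.20, 8.23, 8.21 and 8.45, with mouse 36 above 3 libraries that lay close together. Corrected for GC content and length of the transcripts, it was 8.21, 8.20, 8.22 and 8.45.

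Oligodendrocyte genes were abundant, and 8 of 11 were lowest in mouse 34, against 34.2% of all genes. After correction for GC content and length 5 were, against 28.9%. Mbp, myelin basic protein, had 2288, 2002, 2311 and 2086 TPM. Mobp averaged 817 ± 39.6 TPM and Cnp, a myelin enzyme, 479 ± 31.99 TPM (SD, n = 4). None of the 11 exceeded 2-fold. The oligodendrocyte precursor genes Pdgfra and Cspg4 (NG2) had 16.2, 16.7, 15.04 and 18.8 TPM and 6.64, 7.09, 7.09 and 6.79 TPM, and none of the 8 genes of precursors and new oligodendrocytes exceeded 2-fold.

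Vessel genes were present and were mostly highest in mouse 36. Cldn5, the tight-junction protein of the blood-brain barrier, had 52.9, 38.9, 46.4 and 60.04 CPM and Slc2a1, the barrier's glucose transporter, 146, 99.7, 151 and 142 CPM. Of 10 endothelial genes, 9 were highest in mouse 36, against 24.3% of all genes. Of 9 mural genes, which mark pericytes and smooth muscle, 5 were highest there, among them Pdgfrb with 21.3, 23.9, 24.7 and 30.9 CPM. Vtn, vitronectin, averaged 97.8 ± 14.7 TPM (SD, n = 4). Genes of meningeal fibroblasts were low: Dcn, decorin, had 6.57, 4.18, 5.31 and 6.25 CPM, Col1a2 had 12.8, 11.7, 18.6 and 16.6 CPM and Lum, lumican, 1.72, 0.688, 1.48 and 2.301 CPM. Of these 10 genes, 7 were highest in mouse 36, against 24.3% of all genes, and 3 exceeded 2-fold, against 4.26%. Col3a1, a fibrillar collagen, was among them, with 0.979, 2.65, 2.57 and 3.11 CPM and its lowest level in mouse 33. The summed CPM of the meningeal list was 90.7, 100.1, 123 and 133.

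Resting microglia genes were present in every library. The purinergic receptor P2ry12, by which microglia sense ATP from damaged cells, had 17.99, 23.4, 12.9 and 20.4 CPM and Tmem119 had 26.4, 26.9, 23.96 and 25.8 CPM. The complement subunit C1qa averaged 208 ± 32.98 TPM (SD, n = 4). Of 16 microglia genes, 9 were highest in mouse 36, 3 in mouse 34 and 4 in mouse 35, against 24.3%, 32.9% and 26.5% of all genes. Of the same 16, 8 were lowest in mouse 33 and 7 in mouse 35, against 17.3% and 25.5% of all genes. P2ry12 and Tmem119 were among those lowest in mouse 35. None exceeded 2-fold, and Tyrobp, the adaptor that signals for TREM2, came nearest with 9.93, 11.9, 19.8 and 18.2 CPM.

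Genes of the macrophages at the brain's borders and of blood leukocytes were scarce. Mrc1, the mannose receptor of border macrophages, had 1.82, 1.87, 0.784 and 2.13 CPM and Pf4 had 0.419, 0.688, 0.174 and 0.23 CPM, and 2 of the 7 genes of this list reached a mean of 1 CPM. Ptprc, the leukocyte antigen CD45 that microglia also express, had 1.77, 2.95, 1.66 and 2.08 CPM. S100a9, a neutrophil protein, had 0.0932, 0.295, 0.523 and 0.403 CPM, and only its mouse 33 value lay under the level that 3 counts give there (0.140 CPM). Both genes were scarce in all 4 libraries. Cd4, a co-receptor of helper T cells also found on myeloid cells, was uneven with 3.45, 0.147, 1.26 and 1.495 CPM, and 3 of the 10 leukocyte genes were measured here.

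Genes of the reaction to injury were expressed in all 4 cortices. Those of reactive astrocytes, activated microglia, and complement and MHC were mostly lowest in mouse 33, whereas heat shock, interferon-response, cytokine and neuronal injury genes were not. This order was not particular to injury genes. In mouse 33, 6 of 10 endothelial, 5 of 10 meningeal fibroblast and 8 of 16 resting microglia genes were also lowest, against 17.3% of all genes. Of the astrocyte and oligodendrocyte genes, 1 of 14 and 0 of 11 were. Among genes that reactive astrocytes are known to raise, the intermediate filament Gfap had 377, 546, 537 and 649 CPM. Vim, vimentin, had 55.02, 74.5, 65.9 and 85.5 CPM and Serpina3n, a secreted protease inhibitor, 33.9, 48.9, 43.9 and 48.1 CPM. All 3 were lowest in mouse 33 and differed by less than 2-fold. Of 24 such genes with a mean of at least 1 CPM, 16 were lowest in mouse 33, against 17.3% of all genes, and 2 exceeded 2-fold: Cd44, a hyaluronan receptor, with 1.68, 3.59, 2.27 and 3.11 CPM, and the interferon-induced GTPase Gbp2 with 2.38, 2.802, 2.701 and 4.95 CPM. Known markers of acute reactivity were low. Lcn2, lipocalin 2, had 0.466, 0.5898, 0.741 and 1.38 CPM and Timp1 0.233, 0.5898, 0.915 and 0.23 CPM, both under a mean of 1 CPM.

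Genes of activated microglia had the widest spread among the glial lists, with an SD of the list mean of 0.30 on the log2 scale, against 0.04 to 0.17 for the other glial lists. Of 14 genes with a mean of at least 1 CPM, 6 exceeded 2-fold, against 4.26% of all genes, and 11 were lowest in mouse 33, against 17.3%. Among the 6, Itgax, Cst7, Clec7a and Lgals3 had means of 1.02 to 1.75 CPM, a level for which 4.26% is too low a background. Cst7 and Lgals3 reached a mean of 1 CPM only through mouse 34, their highest library. That they were highest there, and counted among the 6, thus follows in part from the filter. What part few counts had in this spread was not tested. Itgax, the integrin CD11c that marks microglia around damage, had 0.373, 3.097, 1.92 and 1.61 CPM. Cst7, the protease inhibitor cystatin F, had 0.233, 1.92, 1.002 and 1.27 CPM, and the receptor Clec7a 0.979, 2.56, 1.35 and 2.01 CPM. In each, mouse 33 was lowest and mouse 34 highest, and the values of mouse 33 rest on few counts (8 for Itgax and 5 for Cst7). Gpnmb, a lysosomal glycoprotein, had 3.73, 11.3, 6.01 and 4.72 CPM, again highest in mouse 34. Cd68, a lysosomal protein of phagocytes, had 6.94, 11.6, 12.3 and 15.2 CPM, highest in mouse 36. Abundant members stayed under 2-fold: Apoe had 1765, 1778, 2207 and 2196 CPM and the lysosomal protease Ctsd 423, 475, 503 and 549.8 CPM. Spp1, osteopontin, had 5.03, 8.897, 8.32 and 10.01 CPM, and its mouse 33 value lay under the other 3. The list mean in mouse 33 was 0.57 below that of the other 3 libraries on the log2 scale, and −0.62 to −0.51 under the alternatives run.

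**Figure D2:**
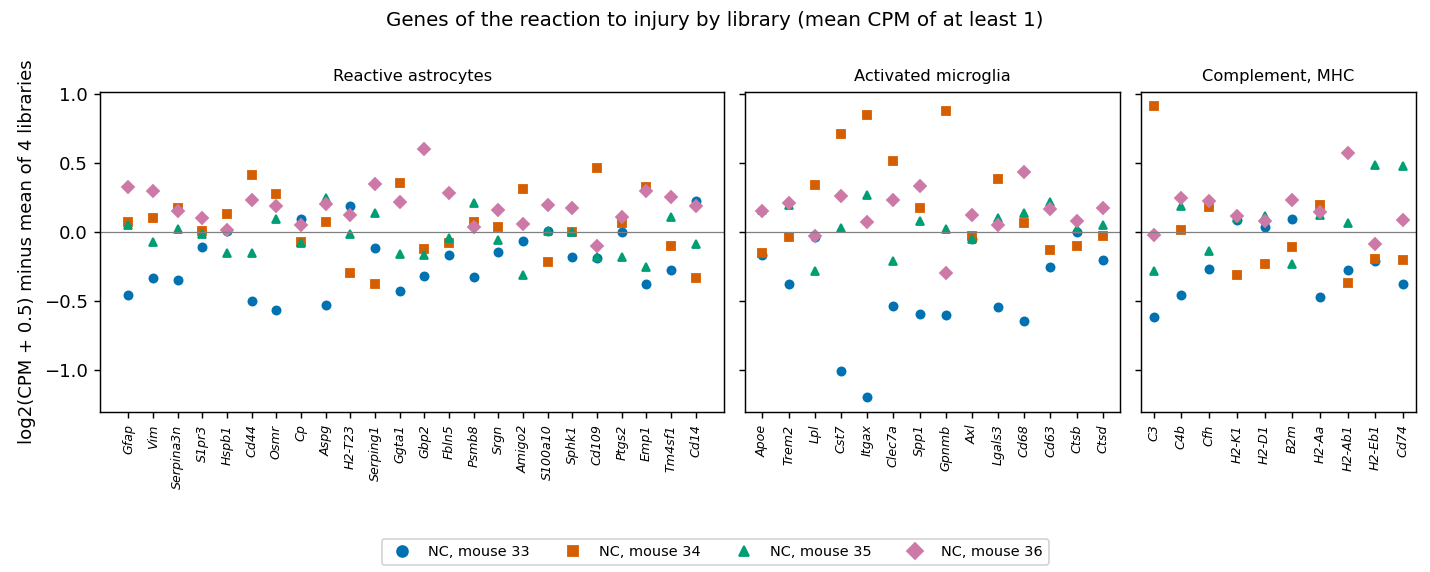
Genes of reactive astrocytes, activated microglia, and complement and MHC in the 4 NC libraries, plotted as log2(CPM + 0.5) minus the mean of the 4 libraries, for genes with a mean of at least 1 CPM. The symbols of mouse 33 lie lowest in 16 of 24, 11 of 14 and 6 of 10 genes, and the widest spread is that of Itgax and Cst7.

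Complement and antigen-presentation genes followed the same order in part, with 6 of 10 lowest in mouse 33, against 17.3% of all genes, and 2 over 2-fold. C4b, the complement gene that astrocytes make, had 44.6, 62.1, 70.2 and 72.8 CPM. C3, the central complement component, was scarce with 0.932, 3.64, 1.31 and 1.67 CPM and highest in mouse 34. B2m, the light chain of MHC class I, averaged 285 ± 36.5 TPM (SD, n = 4) and showed no such order. Class II was near the limit of 1 CPM, with 1.03, 0.934, 1.44 and 2.25 CPM for H2-Ab1, while its invariant chain Cd74 had 3.87, 4.42, 7.41 and 5.52 CPM.

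Inflammatory cytokines were scarce. Il1b had 0.606, 0.295, 0.436 and 0.4601 CPM and Il1a 0.2796, 0.5898, 0.131 and 0.518 CPM, both under a mean of 1 CPM. Il33, an alarmin stored in the nuclei of glia, was by contrast steady at 64.6, 60.4, 68.3 and 71.9 CPM. Of 11 interferon-response genes, 3 were lowest in mouse 33 and 0 exceeded 2-fold, against 17.3% and 4.26% of all genes. Of the neuronal injury genes, Atf3, a transcription factor of damaged neurons, had 0.606, 1.92, 1.002 and 1.55 CPM, and Gap43, the growth-cone protein that adult cortex also makes, had 137, 120.4, 128 and 122 CPM with a ratio of 1.14, highest in mouse 33. Jun had 69.6, 87.03, 87.7 and 71.3 CPM, and 2 of the 6 genes measured exceeded 2-fold, Atf3 and Ecel1; 2 of the 6 were lowest in mouse 33. Of 8 heat shock genes, 5 were highest in mouse 34, against 32.9% of all genes, and 0 were lowest in mouse 33. Among the 5 were Hspa1b, with 29.8, 41.8, 25.6 and 22.2 CPM, and Hspa5, the chaperone of the endoplasmic reticulum, with 247, 292, 164 and 182 CPM. None of the 8 exceeded 2-fold.

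Striatal genes separated the 4 libraries more than any neuronal or layer list: the SD of the list mean over libraries was 0.47 on the log2 scale, against 0.03 to 0.16 for those lists. Of 10 striatal genes, which mark the medium spiny neurons below the white matter, all 10 were highest in mouse 33, against 16.3% of all genes. Of the 10, 6 exceeded 2-fold, against 4.26% of all genes. The dopamine receptor Drd2 had 9.6, 3.15, 3.62 and 4.198 CPM. The adenosine receptor Adora2a had 14.4, 3.54, 7.101 and 7.25 CPM, and Ppp1r1b (DARPP-32), which cortex also expresses, 172, 75.98, 127 and 119 CPM. Mouse 33 stood above the other 3 in each, and mouse 34 was lowest in 8 of the 10, against 34.2% of all genes. The dopamine receptor Drd1 had 11.8, 6.73, 6.32 and 7.53 CPM. The summed level of the list was 367, 178, 246 and 240.4 CPM. The list mean in mouse 33 lay 0.86 above the others on the log2 scale and 0.88 above after correction for GC content and length. In the same library 3 of 5 layer 6b genes were highest, against 16.3% of all genes, and activated microglia genes were mostly lowest. The 6 layer 6 genes did not share this order: 2 were highest in mouse 33, Foxp2 among them, 2 in mouse 34 and 2 in mouse 35. What part the dissected depth had in these differences was not tested.

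Hippocampal genes were highest in mouse 34 for 6 of 8, against 32.9% of all genes. Prox1, a factor of dentate granule cells, had 34.3, 53.8, 40.8 and 40.7 CPM and Fibcd1, a gene of CA1 neurons, 77.8, 109, 68.3 and 81.3 CPM. Tdo2, a tryptophan-degrading enzyme of dentate granule cells, was the only one over 2-fold, with 1.35, 3.24, 2.396 and 1.898 CPM. The list mean in mouse 34 was 0.35 above the others and 0.34 above after correction. Of 7 thalamic genes, none exceeded 2-fold. Tcf7l2, a thalamic transcription factor that glia also express, had 3.87, 5.997, 3.703 and 6.15 CPM, and Slc17a6 (VGLUT2) 26.4, 24.8, 23.1 and 21.6 CPM.

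The choroid plexus gene Ttr and 3 pituitary hormones were highest in mouse 36. Ttr, the thyroxine carrier transthyretin that the choroid plexus secretes, had 20.6, 17.9, 13.03 and 66.6 CPM, a ratio of 5.11. Other choroid plexus genes were scarce: Kl had 7.92, 11.8, 8.23 and 10.5 CPM, Clic6 1.68, 1.23, 1.09 and 2.59 CPM and Otx2 0.326, 0.147, 0.0436 and 0.6901 CPM. Of the 4 with a mean of at least 1 CPM, 3 were highest in mouse 36, against 24.3% of all genes, and 3 exceeded 2-fold. Kl was highest in mouse 34, and Sostdc1, with 1.35, 2.06, 0.958 and 2.24 CPM, was nearly level in mice 34 and 36. Under 1 CPM, Prlr was highest in mouse 34, with 0.559, 0.983, 0.6099 and 0.6901 CPM, and Folr1 and Cldn2 in mouse 33, with 0.885, 0.786, 0.218 and 0.633 CPM and 0.419, 0.0492, 0.349 and 0.23 CPM. The scarce Kcne2 and Aqp1, with 0.1398, 0.0492, 0.131 and 0.23 CPM and 0.373, 0.344, 0.436 and 0.633 CPM, were highest in mouse 36. Gh, growth hormone of the anterior pituitary, had 0.419, 0.5898, 1.52 and 61.1 CPM, from 9, 12, 35 and 1063 counts. It was the most variable gene of all. Prl, prolactin, had 0.326, 0.0983, 0 and 3.68 CPM, and Pomc, the precursor of ACTH, 1.305, 1.03, 1.22 and 5.41 CPM. All 3 hormones were highest in mouse 36, whereas the pituitary hormone subunits Lhb and Tshb were not, with 0.699, 0.344, 0.305 and 0.518 CPM and 0.559, 0.885, 1.09 and 0.748 CPM. The pituitary list was added after the values of Gh were seen. Gh and Prl reached a mean of 1 CPM only through mouse 36, whereas Pomc was over 1 CPM in every library. That Gh and Prl were highest in mouse 36, and ranked among the most variable genes, thus follows in part from the filter. Astrocyte, endothelial and meningeal genes were mostly highest in the same library, as given above, and the part that pituitary, choroid plexus or meningeal RNA had in the values of mouse 36 was not tested.

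Red blood cell genes were lowest in mouse 35 for 5 of 5, against 25.5% of all genes, and all 5 exceeded 2-fold. The globins Hba-a1, Hba-a2 and Hbb-bs had 35.7, 28.6, 10.3 and 25.6 CPM, 50.8, 36.5, 13.8 and 35.3 CPM and 62.8, 46.96, 13.8 and 45.4 CPM. Alas2, the heme enzyme of red cell precursors, had 1.67, 1.32, 0.305 and 0.867 CPM. The summed CPM was 160.3, 124, 42.9 and 118, with mouse 35 below the other 3. Mouse 35 is also the only animal whose NC side was the right, so animal and hemisphere cannot be told apart.

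**Figure D3:**
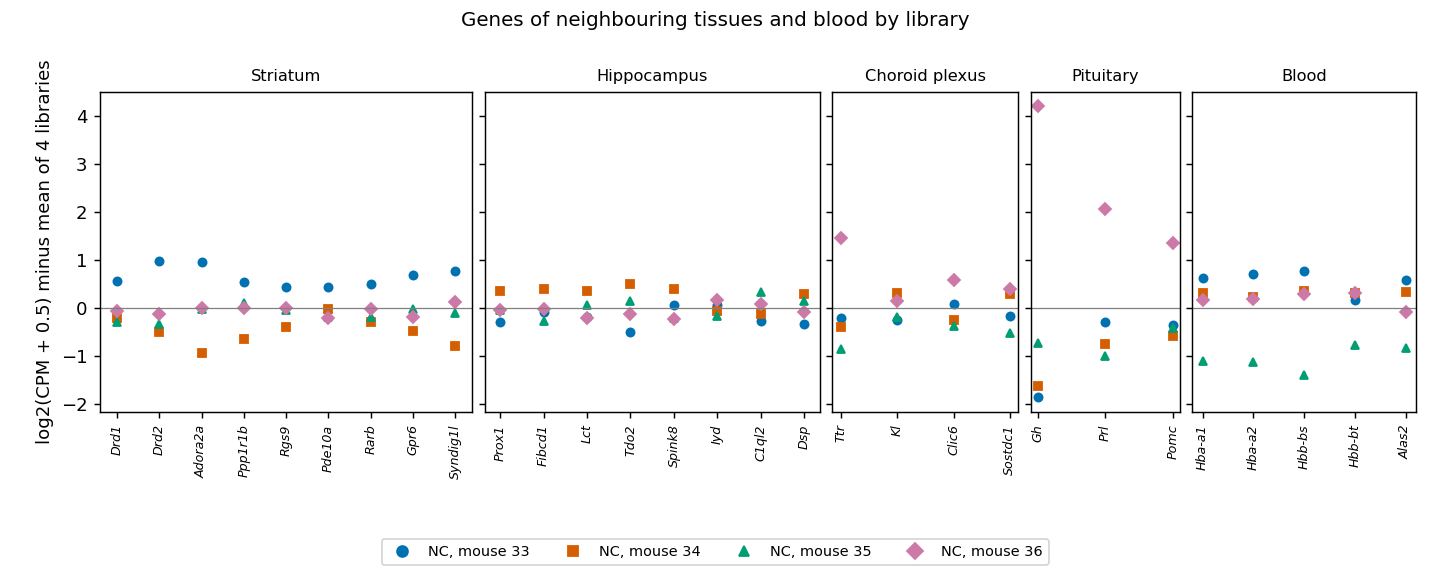
Genes of striatum, hippocampus, choroid plexus, pituitary and red blood cells in the 4 NC libraries, plotted as log2(CPM + 0.5) minus the mean of the 4 libraries. Mouse 33 is highest in every striatal gene plotted, mouse 36 in the 3 pituitary hormones shown, and mouse 35 is lowest in all 5 blood genes.

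Immediate early genes, which neurons switch on within minutes of firing, were well expressed. Arc, which removes glutamate receptors from synapses, averaged 597 ± 80.97 TPM and the transcription factor Egr1 374 ± 44.1 TPM (SD, n = 4). Fos had 57.9, 75.2, 71.2 and 47.4 CPM and Fosb 21.02, 29.2, 30.3 and 17.3 CPM. In both, mouse 36 was lowest. The same held for 15 of the 19 genes, against 23% of all genes, among them Egr2 with 16.6, 20.4, 17.6 and 11.2 CPM and Nr4a1, a nuclear receptor, with 233, 261, 285 and 179 CPM. None exceeded 2-fold. The list mean in mouse 36 was 0.34 below the other libraries on the log2 scale, and 0.39 below after correction for GC content and length.

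Of the 19 genes, 14 matched a promoter in RefSeq (GRCm38.p6), taken as 250 bases before to 50 after the annotated start. The 3 motifs, all known from activity-dependent promoters, were searched on both strands. The full cyclic AMP response element (CRE), TGACGTCA, was in 2 of 14 (14.3%), against 3.39% of 11495 genes measured here with a promoter. The CArG box, bound by serum response factor, was in 1 of 14 (7.14%), against 1.64%, and the E-box CACGTG in 4 of 14 (28.6%), against 11.3%. The half-site TGACG, searched after these counts were seen and contained in every full CRE, was in 12 of 14 (85.7%), against 33.7%. Such matches describe letters and no binding. Windows of 80 bases from 4 promoters are shown to set the full element beside the half-site and the CArG box, 5′ to 3′ on the gene's strand, with the motif in capitals.
Dusp1 (CRE, chr17:26508572-26508651, minus strand): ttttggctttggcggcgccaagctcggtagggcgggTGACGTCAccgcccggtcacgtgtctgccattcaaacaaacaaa
Btg2 (CRE, chr1:134079278-134079357, minus strand): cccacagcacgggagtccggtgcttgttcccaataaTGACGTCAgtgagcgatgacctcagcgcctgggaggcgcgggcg
Egr2 (CArG box, chr10:67537459-67537538, plus strand): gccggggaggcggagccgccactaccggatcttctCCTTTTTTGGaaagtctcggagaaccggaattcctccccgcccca
Fos (CRE half-site, chr12:85473786-85473865, plus strand): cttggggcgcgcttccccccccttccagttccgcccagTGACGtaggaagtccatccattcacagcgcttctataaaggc
Dusp1, a phosphatase that ends MAP kinase signals, had 73.4, 74.1, 84.7 and 62.3 CPM, and Btg2, an antiproliferative factor, 23.4, 28.2, 27.2 and 20.4 CPM. Both had their lowest level in mouse 36, as did Egr2 and Fos with the other motifs shown.

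Slower activity genes were lowest in mouse 36 for 1 of 8 and in mouse 35 for 5 of 8, against 23% and 25.5% of all genes. Bdnf, the growth factor, had 31.6, 37.02, 27.5 and 26.9 CPM and the postsynaptic scaffold Homer1 161, 194, 105 and 113 CPM, both highest in mouse 34. None of the 8 exceeded 2-fold. Vgf, a secreted peptide precursor, averaged 582 ± 56.8 TPM (SD, n = 4). Genes that glucocorticoids induce were highest in mouse 33 for 6 of 9, against 16.3% of all genes. Fkbp5, which dampens the glucocorticoid receptor, had 66.6, 50.7, 50.3 and 53.6 CPM, and Tsc22d3 (GILZ) 115, 79.7, 91.4 and 99.5 CPM. Plin4, a lipid droplet protein, and Hif3a, a hypoxia factor, were over 2-fold, with 32.9, 13.2, 22.3 and 21.1 CPM and 6.29, 2.95, 6.84 and 4.66 CPM, and both were lowest in mouse 34.

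**Figure D4:**
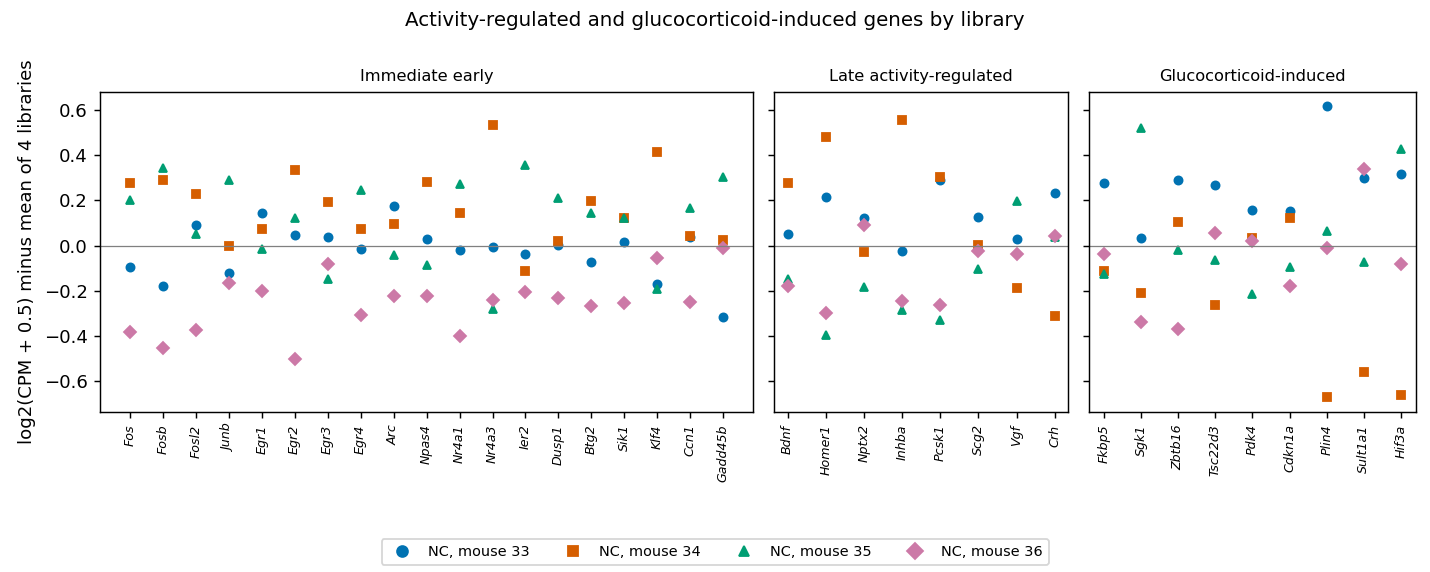
Immediate early, late activity-regulated and glucocorticoid-induced genes in the 4 NC libraries, plotted as log2(CPM + 0.5) minus the mean of the 4 libraries. Mouse 36 is lowest in 15 of 19 immediate early genes, and no gene in the first 2 panels spans a 2-fold range.

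Ranked by the SD of log2(CPM + 0.5), the most variable genes of this cortex were largely processed pseudogenes and genes with near-identical copies. Of the 25 most variable genes with a mean of at least 1 CPM, 13 were pseudogenes, against 1.05% of all such genes, and 16 were listed at 0 in at least 1 library. Ccl21d, 1 of several near-identical copies of a lymphatic chemokine gene, had 26.1, 0, 28.6 and 19.7 CPM. Rpl10a-ps1 had 17.8, 13.96, 0 and 9.92 CPM, while its parent Rpl10a, a ribosomal protein gene, had 123, 112, 140.4 and 154 CPM. The annotated pseudogene transcript matched the parent over all 654 of its bases. On the log2 scale the SD was 0.15 for the sum of the 2, 0.20 for the parent alone and 2.43 for the pseudogene. Pgam1-ps2, Rps13-ps2 and Rpl36a-ps2 likewise matched their parents Pgam1, Rps13 and Rpl36a without a difference. The sums had SDs of 0.08, 0.15 and 0.11, the parents alone 0.08, 0.16 and 0.14, and the pseudogenes 2.29, 1.92 and 1.82. Each parent makes up most of its sum, so a sum steadier than the pseudogene does not show that reads were exchanged. Levels of these pseudogenes are uncertain, since reads cannot be told apart from those of the parent. The other pseudogenes among the 25 were Gm13835, Gm6565, Gm8325, Gm6361, Gm4332, Gm10359, Gm9531, Gm9726 and Gm3883.

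Of the 12 protein-coding genes among the 25, Ccl21d, Gh, Prl and Cd4 are described above. Derpc had 3.18, 11.1, 0.242 and 13.7 CPM and was highest in mouse 36. Pagr1a, a subunit of histone methyltransferase complexes, had 0.668, 9.57, 2.86 and 0.846 CPM and Rsc1a1 4.1, 4.45, 0 and 1.64 CPM. The mean level of each lay under 10 CPM. Gm20431, Gm21985, Lenep, Gm28036 and Gm21586 had means of 1.13 to 2.52 CPM. The 25th gene had an SD of 1.06 and the next, Ttr, 1.01. Of the 583 genes over 2-fold, 93, 175, 135 and 180 had their highest level in mice 33, 34, 35 and 36. At a mean of at least 5 CPM, 101 genes exceeded 2-fold (0.886%).

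**Figure D5:**
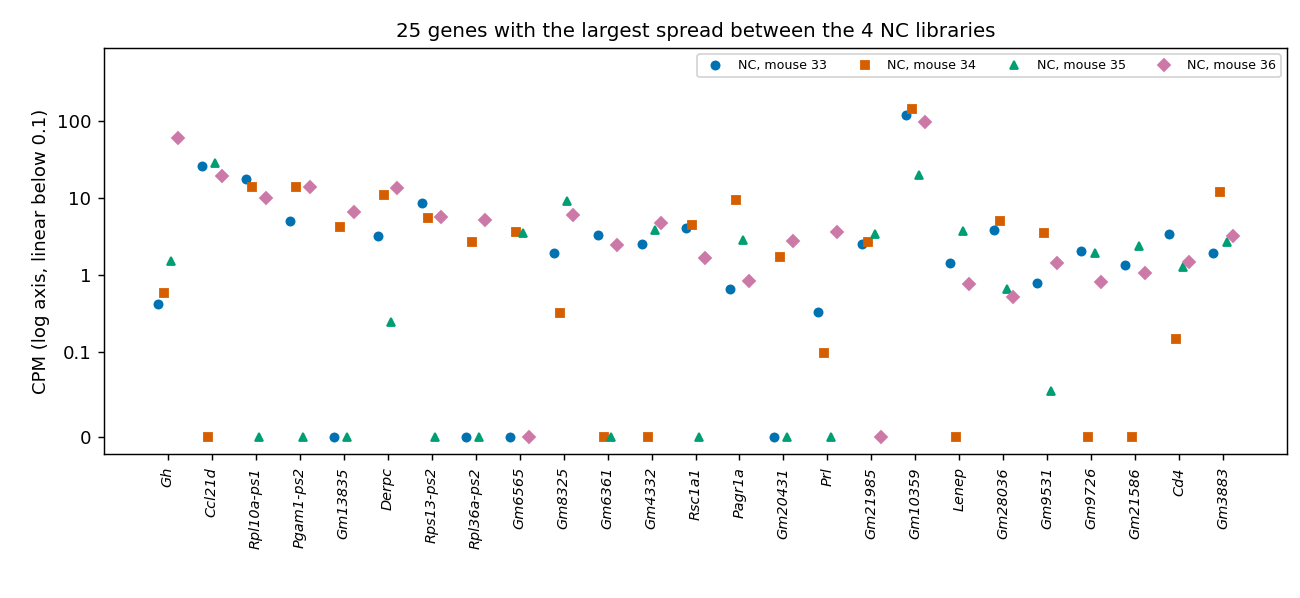
CPM of the 25 most variable genes in the 4 NC libraries, in order of the SD of log2(CPM + 0.5), on a log axis that is linear below 0.1 so that 0 can be shown. Gh reaches 61.1 CPM in mouse 36 alone, and 16 of the 25 genes have at least 1 symbol at 0.

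The steadiest genes at a mean of at least 10 CPM had nearly the same level in all 4 animals. Cipc, a partner of the circadian protein CLOCK, had 101 CPM in each library, and Man1b1, a mannosidase of the endoplasmic reticulum, 74.97, 74.8, 74.4 and 74.9 CPM. Atrip, Abtb2, Serinc5, Evc, Entpd6, Zfp629, Sin3a and Traf7 completed the 10, with ratios of 1.01 to 1.02. Sin3a is a scaffold of histone deacetylases and Traf7 a ubiquitin ligase. Across all genes the biological coefficient of variation, the relative spread between animals beyond counting noise, was 0.115. It was 0.0876 without mouse 34 and 0.131 without mouse 33.

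Base composition moved with the differences between libraries. Across 9931 genes with a mean of at least 10 CPM, Spearman's rho between the GC content of a transcript and its deviation from the mean of the 4 libraries was −0.0752, −0.593, 0.599 and 0.274 in mice 33, 34, 35 and 36. With transcript length it was −0.122, 0.585, −0.281 and −0.471. These correlations are across genes, which are not independent replicates. GC content and length together accounted for 1.26%, 35.7%, 19.98% and 13.3% of the variance of the deviations. Ribosomal protein genes were lowest in mouse 34 for 74 of 83, and nuclear genes of oxidative phosphorylation for 77 of 88, against 34.2% of all genes. After a correction for GC content and length these counts were 52 and 41, with a background of 28.9% of all genes lowest in mouse 34.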

How the data were processed

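Poly(A) RNA of the NC-injected cortex of 4 mice was used; the LNA218 libraries were not used here. The authors deposited estimated counts per gene, of which 65.6% were not whole, and natural log values, which equalled ln(CPM + 1) up to 1 factor per library. Per the submitters' processing notes, Salmon, edgeR and the build GRCm39 were used, without version or role. The annotation and gene filters behind the table were not given in the sources used here. Estimated counts were scaled by TMM over the 4 NC libraries (edgeR 4.0.16, R 4.3.3) to CPM. TPM was computed here from GENCODE M21 transcript lengths (GRCm38), matched for 14769 genes (99.2%) by symbol, with the protein-coding transcript of longest CDS for each gene. Spread was described by the SD of log2(CPM + 0.5), by the ratio of highest to lowest library and by edgeR's dispersion from a model with a mean only, fitted on counts rounded to whole numbers. With 1 group there was no hypothesis test and no p-value. The steps were checked on simulated data.

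Levels were summarised for 37 lists of 380 genes, of which 359 were measured, and for 5 further sets: ribosomal proteins, nuclear and mitochondrial genes of oxidative phosphorylation, copies of mitochondrial genes, and pituitary hormones. Genes named are the 20 highest in TPM, the first 2, the 3 highest and the 2 most variable of each list, the 25 most and the 10 least variable; others were chosen after their values were seen. The members and lists were chosen with earlier results of these data known. The GC and length correction took out a smooth fit of each library's deviation on both. Alternatives were DESeq2 1.42.0 size factors, library totals, the deposited log values, other thresholds and pseudocounts, and each library left out in turn. Values of some single list members are not reported here.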

Additional observations from a re-analysis of the deposited data

Results flagged for a closer look

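Of 42 list means and 211 genes examined, 2 list means and 14 genes had 1 library separated from the other 3 by a gap that takes up most of the range of the 4. In groups of 4, chance gives such a gap in about 1 of 20 cases. That rate does not hold for genes and lists chosen for their values, among them the 25 most and 10 least variable genes, the pituitary list, Mid1, Itgb2 and Zbtb20. Values are on the log2(CPM + 0.5) scale. In mouse 36, the astrocyte list mean stood apart at 8.45, and so did the pituitary list mean at 2.18 and the hormone precursor Pomc at 2.56. In the same library Sin3a stood apart at 5.14 within a narrow range, and Gm21985, listed at 0 counts, at -1. In mouse 35, mt-Atp6 stood apart at 10.91 and the chromosome 1 copy of another mitochondrial gene, Gm28437, at 9.50. The pseudogenes Rpl10a-ps1 and Rps13-ps2, listed at 0 counts in mouse 35, stood apart at -1 each, and Abtb2, one of the steadiest genes, at 4.11. In mouse 34, Ccl21d was listed at 0 counts and stood apart at -1, Slc2a1 at 6.65, Uchl1 at 9.07 and Zbtb20 at 6.71. In mouse 33, Mid1 stood apart at 5.96 and Itgb2 at 2.30. The cause of each was not tested.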

How the results depend on the processing

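Of 42 recomputed counts, rankings and spreads, 32 stayed within the spread or ratio set for them. The number of genes over 2-fold was 101 at a mean of at least 5 CPM, 1395 with no filter on low values and 285 with 0.5 CPM added before the ratio, against 583. Leaving out 1 library gave 320 to 420 such genes, with 320 without mouse 34 and 365 without mouse 36. A ratio over fewer libraries can only be equal or lower. Of the 25 most variable genes, 6 stayed at a mean of at least 5 CPM, which are simply those of the 25 that reach that mean. From 15 to 22 stayed when 1 library was left out, with 15 without mouse 34 and 16 without mouse 35. Of the 20 most abundant, 10 stayed with CPM in place of TPM and 20 without any 1 library. With mitochondrially encoded genes left out 12 stayed, a number fixed beforehand, since the other 8 are such genes. The cause of the remaining changes was not tested. The 294 recomputed list means, the 49 differences of a library from the others and the 1477 gene means kept their size within the spread of the 4 libraries. The striatal difference of mouse 33 ran from 0.73 to 0.94, the immediate early difference of mouse 36 from -0.39 to -0.30 and the blood difference of mouse 35 from -1.50 to -1.29 (log2). No paired analysis was possible because only NC libraries were described and no groups were compared. Below about 1 CPM, 3 counts correspond to 0.131 to 0.173 CPM, so single values there are imprecise. The GC and length correction was chosen after seeing the data.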

Other observations

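Circadian genes were measured in all 4 libraries. Dbp, an output gene of the circadian clock, had 141, 104, 194 and 182 CPM and Per1, a clock repressor, 180.4, 151, 188 and 141 CPM. Arntl (BMAL1), which drives both, had 25.96, 29.9, 22.9 and 23.6 CPM. Arntl is not among the 9 circadian genes counted next, since the list held it under the name Bmal1. Of these 9, 5 were highest in mouse 35, against 26.5% of all genes, and none exceeded 2-fold. After the correction for GC content and length, 4 were highest in mouse 35 and 5 in mouse 33, against 24.1% and 24.7% of all genes. The time of day of each dissection was not used here. Among genes of dividing cells, Mki67 had 1.26, 1.67, 1.22 and 1.55 CPM and Top2a 1.91, 2.02, 2.18 and 1.78 CPM, and 3 of 6 had a mean of at least 1 CPM.

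Further genes, chosen after their values were seen, separated single libraries. Mid1, which spans the pseudoautosomal boundary of the mouse sex chromosomes, had 61.9, 21.6, 19.01 and 20.3 CPM, with mouse 33 above the other 3. Lyz2, the lysozyme of myeloid cells, had 9.55, 27.1, 16.7 and 21.9 CPM and Itgb2, the integrin beta chain of leukocytes and microglia, 4.43, 7.86, 7.37 and 7.71 CPM, both lowest in mouse 33. Zbtb20, a transcription factor of hippocampal neurons and astrocytes, had 54.3, 105, 60.3 and 54 CPM, and the neuropeptide Y receptor Npy2r 13.4, 24.3, 8.49 and 13.98 CPM, both highest in mouse 34. Nnat, neuronatin, had 92.5, 100.2, 85.8 and 146 CPM, and Aldh1a2, an enzyme of retinoic acid synthesis made in the meninges, 2.84, 3.097, 4.705 and 7.71 CPM, both highest in mouse 36. Of the ependymal genes, which mark the lining of the ventricles, Foxj1 had 9.69, 13.96, 12.2 and 12.6 CPM and Ccdc153 1.96, 1.82, 1.62 and 3.74 CPM. The Ccdc153 value of mouse 36 lay above the other 3.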
